A study of Mus musculus with 8 samples.

Results

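Gene expression was measured in 8 libraries of mouse liver, and 8 genes that mark bile duct cells and the ductular reaction were followed through them. They are Spp1, Sox9, Krt7, Krt19, Krt23, Epcam, Cftr and Cldn7, chosen by name, and all 8 were found among the 19055 genes of the table. Of the libraries, 5 came from liver of the genotype URI(+/D)Hep. This genotype was designed to delete URI in hepatocytes through a Cre recombinase that tamoxifen switches on and serum albumin sequences drive. The notation gives it 1 wild-type allele (+) beside 1 D allele. The 3 control libraries had the genotype URI(+/+)Hep and came from wild-type littermates. No source states that each library is a separate animal, so a liver here means the tissue of 1 library. All mice received tamoxifen, were 8 to 9 weeks old at surgery and were killed 48 hours after partial hepatectomy, the removal of a large part of the liver, and each library holds total RNA of frozen liver, read from the 3′ ends of transcripts. The Cre was designed to act in hepatocytes, so the duct cells that give these genes their name are not its intended target. Deletion was not measured here in any cell type.

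Cholangiocytes are the epithelial cells that line the bile ducts. They carry the simple-epithelium keratins Krt7 and Krt19, the adhesion molecule Epcam and the tight junction protein Cldn7, and they alkalinize bile with the help of the chloride channel Cftr. Sox9 is the transcription factor of the duct lineage and of the hepatocytes nearest to it, and Spp1 encodes osteopontin, a secreted matrix protein that duct cells and activated macrophages both make. In liver injury, strings of small duct-like cells can expand at the portal tract, which is called a ductular reaction, and Krt23 is a keratin induced in that setting. After partial hepatectomy in a healthy liver, regrowth comes mainly from division of the remaining hepatocytes, and Mki67, a protein of dividing cells, serves to follow it.

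The libraries differed in ways that the genotype labels do not state. Depth was even, between 3838674 and 4800694 reads, and all values below are normalized reads, scaled so that libraries can be compared. Uri1 itself stood between 328 and 437 in the URI(+/D)Hep livers and between 310.0 and 468 in the URI(+/+)Hep livers (limma adjusted p = 0.975), and a read from the 3′ end need not show a deletion elsewhere in the gene. Xist, the RNA of the inactive X chromosome, stood at 1217 to 2357 in the URI(+/D)Hep livers and at 9.59, 2.95 and 1298 in URI(+/+)Hep 1, 2 and 3, so that Xist and genotype move together except through URI(+/+)Hep 3. The 4 Y-linked genes summed to 3.54 in URI(+/D)Hep 1 and 786 to 1002 in URI(+/D)Hep 2 to 5, against 1558, 1312 and 569 in URI(+/+)Hep 1 to 3. URI(+/D)Hep 2 to 5 and URI(+/+)Hep 3 therefore held both kinds of sex-specific transcript, which the labels do not mention. The labels call the cells epithelial, and the hepatocyte genes Alb, Hnf4a and Cps1 were abundant in every library, but markers of macrophages, stellate cells and neutrophils were present too. In such whole tissue, fewer cells of a type and less RNA per cell cannot be told apart. Mki67 was low in 2 libraries, URI(+/D)Hep 5 at 49.5 and URI(+/+)Hep 1 at 23.99, against 268 to 586 in the other 6.

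The 8 markers fell into different patterns over the libraries. Spp1 and Sox9 were highest in URI(+/+)Hep 1 and 2, Epcam, Cftr, Cldn7, Krt19 and Krt7 were highest in the single liver URI(+/D)Hep 5, and Krt23 was low everywhere. None of the 8 passed the test between the genotypes. The test was limma on log2(value + 1) over the 13704 genes that reached 10 normalized reads in 3 libraries or more, with Benjamini-Hochberg adjustment over all of them and a threshold of 0.05. It called 0 genes higher (0%) and 2 genes lower (0.0146%), Tuft1 and Rps4l, and 1144 higher (8.35%) and 1278 lower genes (9.33%) had an unadjusted p under 0.05. Of the markers, Spp1 and Sox9 were among those with a lower value. Spp1, Sox9, Epcam, Cftr and Cldn7 passed the filter on low values, while Krt7, Krt19 and Krt23 did not and are given mainly as values. The ranges of the groups overlapped for all 8 markers, against 13.4% of tested genes whose ranges did not.

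**Figure D1:**
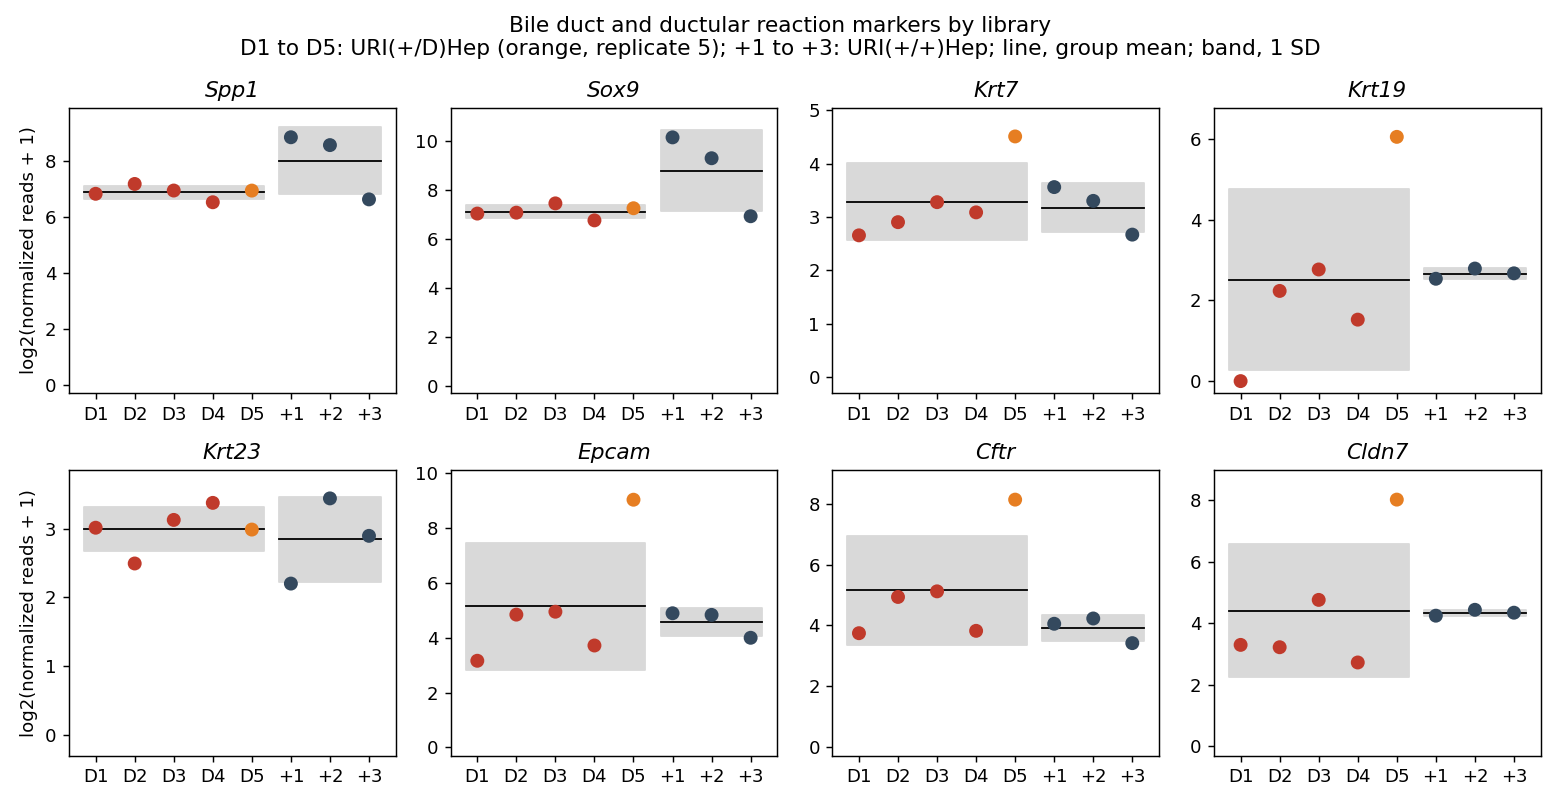
Level of each marker in each library, as log2(normalized reads + 1) on the vertical axis; points are libraries, lines are group means and bands are 1 SD. URI(+/D)Hep 5, in orange, is the highest library for Krt7, Krt19, Epcam, Cftr and Cldn7, while URI(+/+)Hep 1 and 2 are the highest for Spp1 and Sox9.

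Sox9, the transcription factor, had the log2 fold change farthest from 0 among the 8 markers. It stood at 131, 134, 175, 108 and 152 normalized reads in URI(+/D)Hep 1 to 5, against 1141, 631 and 121 in URI(+/+)Hep 1 to 3. URI(+/+)Hep 1 and 2 lay above every other library, and URI(+/+)Hep 3 lay inside the range of the URI(+/D)Hep livers. The means were 140.0 ± 25.2 in URI(+/D)Hep livers (SD, n = 5) and 631 ± 509.6 in URI(+/+)Hep livers (SD, n = 3). The log2 fold change was -1.68 (SE 0.59, 95% interval -3.01 to -0.34, limma adjusted p = 0.200). A two-sided exact permutation test gave p = 0.0893, and the smallest value its 56 splits can give is 0.0179.

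Spp1, the osteopontin gene, had the same high libraries as Sox9. It stood at 112, 144, 122, 90.9 and 122 in URI(+/D)Hep 1 to 5, against 458, 377 and 97.6 in URI(+/+)Hep 1 to 3. Again URI(+/+)Hep 1 and 2 lay above all other libraries, and URI(+/+)Hep 3 lay among the URI(+/D)Hep livers. The means were 118 ± 19.03 in URI(+/D)Hep livers (SD, n = 5) and 311 ± 189 in URI(+/+)Hep livers (SD, n = 3), and the difference on the log2 scale was -1.13, with an SE of 0.44 (limma adjusted p = 0.235, two-sided exact permutation p = 0.0893). Across the 8 libraries the log2 values of Spp1 and Sox9 had a Pearson r of 0.98, and the r was also 0.98 over the 7 libraries other than URI(+/D)Hep 5, a description that rests largely on the 2 high controls.

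What the Spp1 and Sox9 difference amounted to depended on the controls kept. Without URI(+/+)Hep 3, both genes fell in URI(+/D)Hep livers, with log2 fold changes of -2.61 for Sox9 and -1.82 for Spp1 (limma adjusted p = 0.0140 for each), in a fit that called 0.168% of genes lower and 0.0803% higher. That fit sets the 2 controls with almost no Xist against livers that all hold Xist, so sex composition and genotype cannot be told apart in it. Without URI(+/+)Hep 1 the log2 fold changes were -0.998 for Sox9 and -0.71 for Spp1, and without URI(+/+)Hep 2 they were -1.42 and -0.85 in the same order, so both signs held when either high control was left out. Without both, which was tried after their values had been seen, they were 0.19 for Sox9 and 0.26 for Spp1; since this leaves out the 2 libraries highest for both genes, the loss of the difference was fixed by that choice and is given as a description. A fit with a covariate for Y-linked reads gave -1.02 for Sox9 and -0.67 for Spp1 (limma adjusted p = 0.367 and 0.436). On whole reads recovered from the table, DESeq2 called both lower (adjusted p = 0.00294 for Sox9 and 0.0246 for Spp1), where it called 2.94% of the genes it adjusted lower and 2.03% higher. Over the 7 libraries other than URI(+/D)Hep 5, DESeq2 again called both lower (adjusted p = 0.00692 for Sox9 and 0.0486 for Spp1), beside 2.2% of genes lower and 1.06% higher. edgeR called neither (adjusted p = 0.122 for Sox9 and 0.141 for Spp1), with 0.0219% of genes lower.

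Some genes of other cells were high in the same pair of controls. Both URI(+/+)Hep 1 and 2 lay above the other 6 libraries for 8.22% of the genes tested, and for Spp1 and Sox9 among the 8 markers. They did so for 5 of 14 macrophage markers, namely Marco, Trem2, Gpnmb, Lgals3 and Mmp12, and for 7 of 10 neutrophil markers. Other macrophage markers, Adgre1, Clec4f, Vsig4, Timd4, Csf1r and Cd5l, had their lowest level of the 8 libraries in URI(+/+)Hep 1; Clec4f, a lectin of resident Kupffer cells, stood at 203 to 384 in URI(+/D)Hep livers, against 102, 238 and 245 in URI(+/+)Hep 1 to 3. Gpnmb, a lysosomal glycoprotein of activated macrophages, stood at 6.19, 44.4, 58.0, 6.56 and 43.5 in URI(+/D)Hep 1 to 5, against 215, 269.8 and 8.58 in URI(+/+)Hep 1 to 3. The summed level of the macrophage list overlapped, at 5851 to 7261 in URI(+/D)Hep livers and 5536 to 7512 in URI(+/+)Hep livers, and so did that of the neutrophil list, at 316 to 915 in URI(+/D)Hep livers and 566 to 1214 in URI(+/+)Hep livers. The stellate cell and fibroblast markers Col1a2, Col3a1 and Dcn had the same order, 3 of 10 in their list, whose sum was 1699 to 1965 in URI(+/D)Hep livers and 1656 to 1885 in URI(+/+)Hep livers. The part of these cells in the Spp1 and Sox9 values was not tested.

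Epcam, the epithelial adhesion molecule, was set apart by a single liver. It stood at 525 in URI(+/D)Hep 5, against 7.96, 27.8, 29.96 and 12.2 in URI(+/D)Hep 1 to 4 and 28.8, 27.6 and 15.02 in URI(+/+)Hep 1 to 3. The level in URI(+/D)Hep 5 was 17.5 times the highest of the other 7 libraries. Cldn7, the tight junction protein, stood at 258 in URI(+/D)Hep 5, against 8.84, 8.33, 26.1 and 5.62 in URI(+/D)Hep 1 to 4 and 17.99, 20.7 and 19.3 in URI(+/+)Hep 1 to 3. The 4 other URI(+/D)Hep livers lay on both sides of the narrow control range. Cftr, the chloride channel of bile secretion, stood at 283 in URI(+/D)Hep 5, against 12.4, 29.6, 33.8 and 13.1 in URI(+/D)Hep 1 to 4 and 15.6, 17.7 and 9.66 in URI(+/+)Hep 1 to 3. URI(+/D)Hep 5 stood at 9.89 times the highest other library for Cldn7 and 8.36 times for Cftr. Over the 8 libraries the Pearson r of log2 values was 0.96 between Epcam and Cftr and 0.87 between Cftr and Cldn7, and over the 7 without URI(+/D)Hep 5 it was 0.71 and 0.22.

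The keratins were near the detection limit in most libraries. Krt19, the keratin most used to mark ducts, stood at 65.3 in URI(+/D)Hep 5, which is 66 reads, against 0, 3.70, 5.80 and 1.87 in URI(+/D)Hep 1 to 4 and 4.80, 5.91 and 5.36 in URI(+/+)Hep 1 to 3. In no other library did it exceed 6 reads, and a count of 3 reads, which corresponds to 2.65 to 3.60 normalized reads, is taken as the limit of detection. The level in URI(+/D)Hep 5 was 11.05 times the highest of the others for Krt19 and 2.02 times for Krt7. Krt7, its partner in duct filaments, stood at 21.8 in URI(+/D)Hep 5, against 5.30 to 8.70 in URI(+/D)Hep 1 to 4 and 5.36 to 10.8 in the URI(+/+)Hep livers. Krt23, the keratin tied to ductular reaction, stood at 4.63 to 9.37 in URI(+/D)Hep livers and 3.60 to 9.85 in URI(+/+)Hep livers, and URI(+/D)Hep 5 ranked 5 of 8. In a fit without the filter, limma gave adjusted p-values of 0.939 for Krt7, 0.966 for Krt19 and 0.889 for Krt23.

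Between the genotypes, the fold changes of these markers depended on URI(+/D)Hep 5. With all 8 libraries, the log2 fold changes were 0.57 for Epcam (SE 1.14, limma adjusted p = 0.833), 1.26 for Cftr (SE 0.89, 0.492) and 0.06 for Cldn7 (SE 1.06, 0.980). Without URI(+/D)Hep 5 they were -0.41 for Epcam (SE 0.49, limma adjusted p = 0.689), 0.51 for Cftr (SE 0.43, 0.565) and -0.84 for Cldn7 (SE 0.47, 0.389). The sign turned for Epcam and Cldn7, and for Krt7, with no test, the difference was 0.11 with all libraries and -0.20 without that liver. Krt19, with no test, had a difference of -0.15 on the log2(value + 1) scale with all libraries and -1.03 without URI(+/D)Hep 5, at levels where single reads decide the value. The means without URI(+/D)Hep 5 were 19.5 ± 11.03 for Epcam in URI(+/D)Hep livers (SD, n = 4) and 23.8 ± 7.62 in URI(+/+)Hep livers (SD, n = 3). For Sox9 and Spp1 the fold changes without that liver were -1.71 and -1.14, close to those with it.

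**Figure D2:**
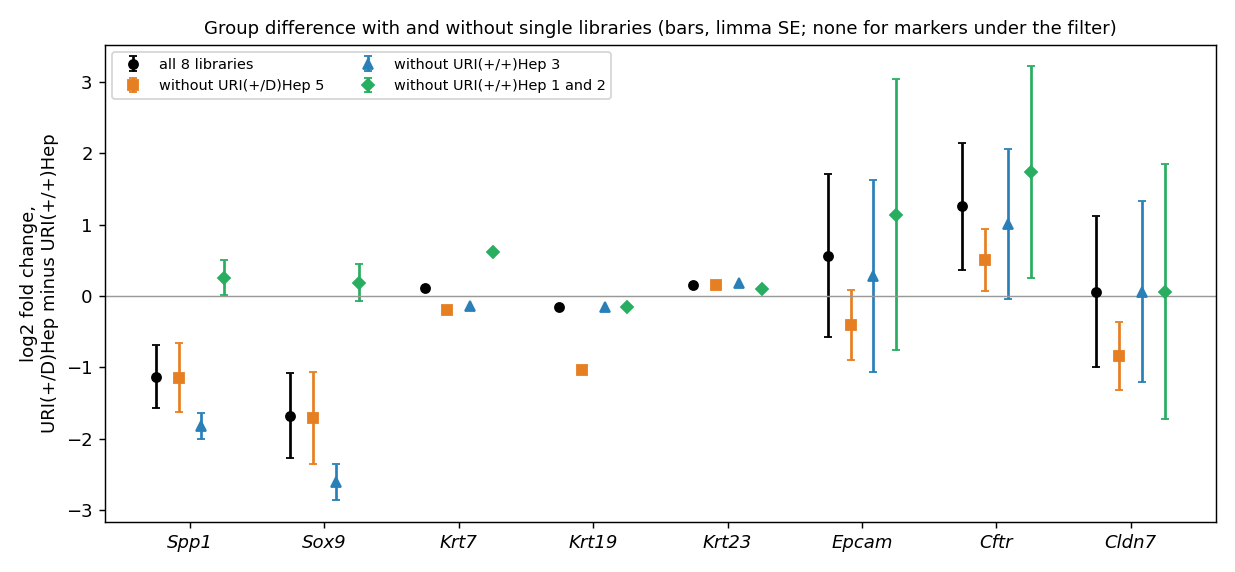
Log2 fold change of each marker, URI(+/D)Hep minus URI(+/+)Hep, on the vertical axis, with all libraries and with named libraries left out; bars are limma standard errors, absent for the 3 keratins under the filter. Leaving out URI(+/D)Hep 5 moves Epcam to -0.41 and Cldn7 to -0.84, and leaving out URI(+/+)Hep 1 and 2, the highest libraries for Sox9 and Spp1, moves these to 0.19 and 0.26.

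The promoters of the 3 markers that stood together in URI(+/D)Hep 5 and passed the filter are shown because all of them were high in the same liver. Each is the RefSeq window of 250 bases before to 50 after the start, on build GRCm38.p6, which is not the build named for the reads. They are the plus-strand windows chr17:87635729-87636028 (Epcam), chr6:18170437-18170736 (Cftr) and chr11:69964529-69964828 (Cldn7, the first of its 2 windows). Capitals mark a match to a searched motif.
Epcam: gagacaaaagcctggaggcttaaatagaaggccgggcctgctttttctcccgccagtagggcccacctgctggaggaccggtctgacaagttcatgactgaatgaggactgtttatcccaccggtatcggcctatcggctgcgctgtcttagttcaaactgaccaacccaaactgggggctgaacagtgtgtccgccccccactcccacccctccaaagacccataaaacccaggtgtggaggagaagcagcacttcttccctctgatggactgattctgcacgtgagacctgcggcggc
Cftr: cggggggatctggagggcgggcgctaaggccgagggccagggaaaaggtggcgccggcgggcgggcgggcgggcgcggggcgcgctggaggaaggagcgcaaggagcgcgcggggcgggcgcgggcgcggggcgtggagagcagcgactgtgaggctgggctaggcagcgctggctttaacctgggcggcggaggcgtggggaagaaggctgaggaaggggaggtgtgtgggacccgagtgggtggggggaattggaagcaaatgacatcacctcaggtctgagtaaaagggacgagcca
Cldn7: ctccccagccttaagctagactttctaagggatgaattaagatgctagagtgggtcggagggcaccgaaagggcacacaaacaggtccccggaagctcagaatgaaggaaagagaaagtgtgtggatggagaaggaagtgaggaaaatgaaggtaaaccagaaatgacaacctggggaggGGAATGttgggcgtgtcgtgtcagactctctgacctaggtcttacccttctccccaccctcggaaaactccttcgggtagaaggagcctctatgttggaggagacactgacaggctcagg
The letters searched on both strands were GTGGGAA for RBPJ, the Notch effector, GGAATG for TEAD, the partner of YAP, and AACAATG for SOX factors. Of the 32851 windows in the table, 6.38% held the RBPJ letters, 14.7% the TEAD letters and 3.78% the SOX letters. Of the 8 windows found for 6 of the markers, 1 held a match, the TEAD letters 70 bases before the start of Cldn7. A match is a description of letters, and no binding was measured.

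Markers of intestine and exocrine pancreas were high in URI(+/D)Hep 5 too. Of 28 measured intestinal epithelium genes, in a list written after the values of URI(+/D)Hep 5 had been seen, 26 were highest in that liver and 25 exceeded 2-fold of the highest other library. Over all 19055 genes, URI(+/D)Hep 5 was highest for 15.5% and passed that fold, at a value of at least 10, for 2.25%, and among the 8 markers for 5. The summed level of the list was 11465 in URI(+/D)Hep 5, against 836 to 2066 in URI(+/D)Hep 1 to 4 and 852 to 2938 in the URI(+/+)Hep livers. Apoa4, a member of the list, had URI(+/+)Hep 1 and 2 above the other 6 libraries, and the share of single genes in these sums is not given here. In the other 7 libraries 3 of the genes, Cdx1, Defa24 and Guca2a, were at 0, and 12 of the 28 never exceeded 3 reads. Cdx2, the transcription factor of intestinal identity, stood at 48.5 in URI(+/D)Hep 5 and at 0 to 0.985 in the others. Muc13, a membrane mucin, stood at 1090 in URI(+/D)Hep 5, against 1.87 to 3.70 in URI(+/D)Hep 1 to 4 and 3.22 to 10.8 in URI(+/+)Hep livers. Epithelia of intestine and pancreatic ducts also express Epcam, Cldn7, Cftr and Krt19.

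Pancreatic enzymes gave the same picture. All 8 measured pancreas genes were highest in URI(+/D)Hep 5, and 7 exceeded 2-fold of the highest other library. Pnlip, pancreatic lipase, stood at 64.3 in URI(+/D)Hep 5, against 0 to 3.70 in URI(+/D)Hep 1 to 4 and 0 in all URI(+/+)Hep livers. Cela3b, an elastase, stood at 96.9 in URI(+/D)Hep 5 and at 0 to 1.20 in the others. The summed level of the list was 653 in URI(+/D)Hep 5, against 160 to 268 in URI(+/D)Hep 1 to 4 and 181 to 304 in URI(+/+)Hep livers, most of it Cela1 outside URI(+/D)Hep 5. Of the other lists written with the intestinal list, gallbladder epithelium had 5 of 10 genes measured and 1 past 2-fold, Krt7 itself, stomach had 2 of 10 measured and 0 past it, and lung airway and kidney tubule had 3 of 10 measured and 0 past it. The part of intestinal or pancreatic cells in the marker values of URI(+/D)Hep 5 was not tested.

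**Figure D3:**
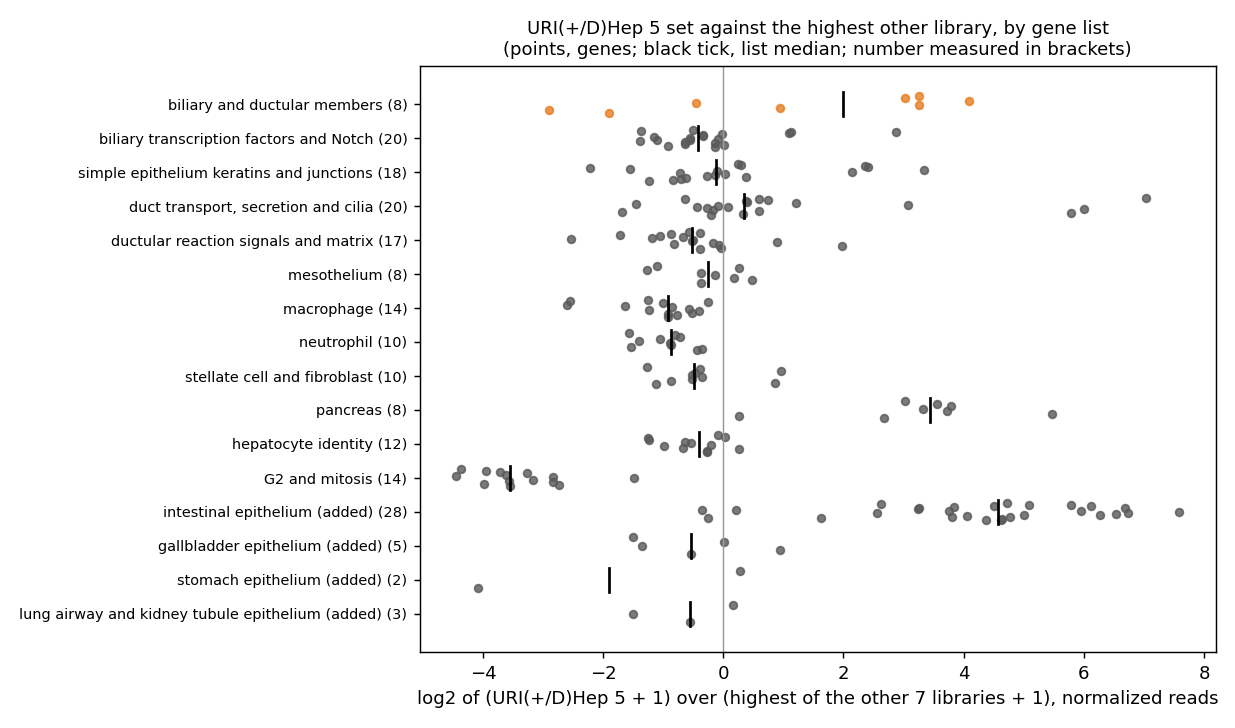
Horizontal axis, log2 ratio of URI(+/D)Hep 5 to the highest of the other 7 libraries, with 1 added to each value; each point is a gene, in rows of gene lists, with a tick at the list median. Of the markers, 5 lie to the right of 0, as do 26 of 28 intestinal and 8 of 8 pancreas genes, while 14 of 14 G2 and mitosis genes lie to the left.

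The transcription factors and Notch genes of the duct lineage gave no call. Of 20 genes, 17 were tested and 0 passed in either direction, with 9 positive and 8 negative log2 fold changes and a median of 0.04, beside -0.0019 for all 13704 genes. Tead1, a DNA-binding partner of YAP, shared the order of Sox9, at 464 ± 62.4 in URI(+/D)Hep livers and 765 ± 327 in URI(+/+)Hep livers (log2 fold change -0.62, SE 0.28, limma adjusted p = 0.287). Without URI(+/+)Hep 3 it fell in URI(+/D)Hep livers (limma adjusted p = 0.0454). The epithelial factors Grhl2, Ehf and Elf3 exceeded 2-fold of the highest other library in URI(+/D)Hep 5, and Elf3 stood there at 121, against 4.83 to 9.37 in URI(+/D)Hep 1 to 4 and 8.58 to 15.6 in URI(+/+)Hep livers. Onecut2, a factor of hepatocyte and duct precursors, stood at 3575 ± 262 in URI(+/D)Hep livers and 3220 ± 519 in URI(+/+)Hep livers (log2 fold change 0.16, limma adjusted p = 0.533).

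Keratins and junction genes of simple epithelia had 18 of 20 genes measured and 16 tested, of which 0 passed in either direction. Their median log2 fold change was -0.08, with 7 positive and 9 negative, and it was -0.32 without URI(+/D)Hep 5. Cldn3, a claudin of hepatocytes and ducts, stood at 348 ± 37.7 in URI(+/D)Hep livers and 502 ± 80.2 in URI(+/+)Hep livers, with no overlap (log2 fold change -0.52, SE 0.13, limma adjusted p = 0.127). Krt18, a keratin of hepatocytes as well as ducts, stood at 1185 ± 214 in URI(+/D)Hep livers and 1979 ± 571 in URI(+/+)Hep livers (log2 fold change -0.72, SE 0.20, limma adjusted p = 0.143). DESeq2 called both lower, with adjusted p-values of 0.0289 and 0.0338. Krt18, Krt8 and Cd24a shared the order of Sox9, with URI(+/+)Hep 1 and 2 above the other 6. Cdh1, which encodes E-cadherin, stood at 1590 ± 275 in URI(+/D)Hep livers and 1919 ± 476 in URI(+/+)Hep livers (limma adjusted p = 0.480). Spint1, St14, Tspan8 and Esrp1 stood more than 2-fold above every other library in URI(+/D)Hep 5.

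Genes of duct transport, secretion and cilia gave no call either. Of 20 genes, 16 were tested and 0 passed, with 13 positive and 3 negative log2 fold changes and a median of 0.44, or 0.18 without URI(+/D)Hep 5. Pkhd1, the fibrocystin gene of duct cilia, stood at 509 ± 54.05 in URI(+/D)Hep livers and 365 ± 78.99 in URI(+/+)Hep livers (log2 fold change 0.50, SE 0.15, limma adjusted p = 0.156). Atp1b1, a sodium pump subunit, stood at 723 ± 293 in URI(+/D)Hep livers and 392 ± 8.34 in URI(+/+)Hep livers, with no overlap (log2 fold change 0.80, SE 0.26, limma adjusted p = 0.173), and DESeq2 called it higher (adjusted p = 0.0493). Pigr, the receptor that carries immunoglobulin A into bile, stood at 1449 ± 578 in URI(+/D)Hep livers and 779 ± 456 in URI(+/+)Hep livers (limma adjusted p = 0.271), and the bicarbonate carrier Slc4a4 at 1742 ± 439 in URI(+/D)Hep livers and 1500.4 ± 431 in URI(+/+)Hep livers (limma adjusted p = 0.651). Slc5a1, Ggt1, Anxa13, Kcnn4 and Dmbt1 stood more than 2-fold above every other library in URI(+/D)Hep 5. Slc5a1, the sodium-glucose carrier of the intestinal brush border and a member of the intestinal list as well, stood there at 1888, against 17.8 to 33.3 in URI(+/D)Hep 1 to 4 and 22.5 to 28.8 in URI(+/+)Hep livers.

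Signals and matrix genes tied to ductular reaction had 17 of 19 genes measured and 14 tested, and 0 passed. Their median log2 fold change was -0.33, with 3 positive and 11 negative. Of the 17, 7 had URI(+/+)Hep 1 and 2 above all other libraries, against 8.22% of all genes tested. Cxcl5, among these 7, was under the filter. Ccn2, a connective tissue growth factor, stood at 124 ± 63.9 in URI(+/D)Hep livers and 303 ± 119 in URI(+/+)Hep livers (log2 fold change -1.36, SE 0.45, limma adjusted p = 0.179). Lcn2, lipocalin 2, an acute phase protein of hepatocytes and neutrophils, stood at 984.5 ± 303 in URI(+/D)Hep livers and 2774 ± 1846 in URI(+/+)Hep livers (log2 fold change -1.25, SE 0.48, limma adjusted p = 0.233), and DESeq2 called it lower (adjusted p = 0.0249). Ccn1, a YAP target, stood at 100.2 ± 10.1 in URI(+/D)Hep livers and 134 ± 17.6 in URI(+/+)Hep livers (limma adjusted p = 0.189), and Fgfr2, a growth factor receptor, at 524 ± 83.2 in URI(+/D)Hep livers and 473 ± 78.4 in URI(+/+)Hep livers (limma adjusted p = 0.683). Of the neutrophil markers 7 of 10, and of the macrophage markers 5 of 14, had the same order, and their part in these values was not tested.

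Other cell types of the tissue gave 0 calls in limma as well, and so did the 1 pancreas and 8 intestinal genes tested. Among the neutrophil markers, DESeq2 called Mmp9 and Csf3r lower (adjusted p = 0.0234 and 0.0493), beside 2.94% of all genes it adjusted. It did not call S100a8, S100a9 or Mmp8 with all 8 libraries. Over the genes tested, the median log2 fold change was 0.11 for 4 mesothelial, -0.10 for 13 macrophage, -0.85 for 7 neutrophil, -0.11 for 10 stellate and 0.07 for 12 hepatocyte identity genes. Mesothelial cells also carry Krt7 and Krt19, and the summed level of their list was 102.9 in URI(+/D)Hep 5, against 73.1 to 101.5 in URI(+/D)Hep 1 to 4 and 74.8 to 96.6 in URI(+/+)Hep livers. Of the 8 mesothelial genes measured, 0 exceeded 2-fold of the highest other library in URI(+/D)Hep 5. The hepatocyte list summed to 42405 in URI(+/D)Hep 5, against 39408 to 42175 in URI(+/D)Hep 1 to 4 and 37668 to 45761 in URI(+/+)Hep livers.

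**Figure D4:**
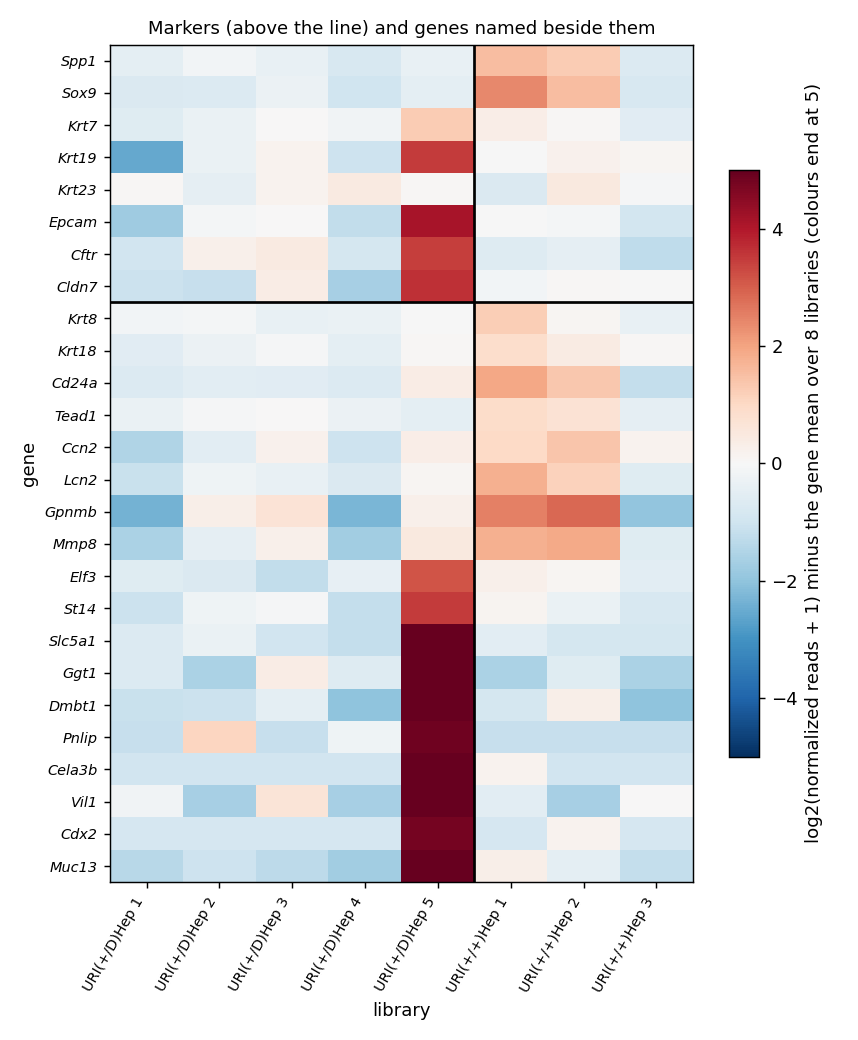
Log2(normalized reads + 1) minus the mean of each gene over 8 libraries, in colour that ends at 5, with libraries in columns and genes in rows; the 8 markers lie above the line, and the genes below it were chosen for display after their values were seen. Sox9 and Spp1 share their high libraries, URI(+/+)Hep 1 and 2, with Krt18, Tead1, Lcn2 and Gpnmb, and Epcam, Cftr, Cldn7 and Krt19 share URI(+/D)Hep 5 with Slc5a1, Pnlip and Muc13.

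Mki67 separated 2 livers from the rest, and the markers differed within that pair. The 2 livers low in Mki67 differed from each other: Epcam stood at 525 in URI(+/D)Hep 5 and 28.8 in URI(+/+)Hep 1, and Sox9 at 152 in URI(+/D)Hep 5 and 1141 in URI(+/+)Hep 1. The G2 and mitosis list summed to 657 in URI(+/D)Hep 5 and 462 in URI(+/+)Hep 1, against 3172 to 5890 in URI(+/D)Hep 1 to 4 and 4126 and 6857 in URI(+/+)Hep 2 and 3. Of its 14 genes, 13 had a positive log2 fold change, with a median of 0.32, and 0 passed the test. Without URI(+/D)Hep 5, 14 of 14 were positive, with a median of 0.94. That fit kept URI(+/+)Hep 1, the lowest library for this list, among the controls, so the signs depend on that choice. Apart from the 2 low livers, the summed levels of the genotypes overlapped. For Mki67 the log2 fold change was 0.82 with all 8 libraries, 1.41 without URI(+/D)Hep 5 and -0.84 without URI(+/+)Hep 1 and 2. Since URI(+/D)Hep 5 and URI(+/+)Hep 1 form a cluster of their own in Mki67, no correlation was computed over all 8.

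Within the 6 livers with Mki67 between 268 and 586, 7 of the 8 markers had a negative Pearson r with Mki67. The share of all genes with a negative r in these livers was not computed, so this count is a description only. Epcam had an r of -0.86 (exact permutation p = 0.0389) and a Spearman rho of -0.89 (exact permutation p = 0.0333), and Sox9 had an r of -0.67 (exact permutation p = 0.0556) and a rho of -0.89 (exact permutation p = 0.0333). Adjusted over the 8 markers, the smallest exact permutation p-values were 0.182 for r and 0.117 for rho, so none passed. Without URI(+/D)Hep 3 and 4, the libraries farthest from the median of Mki67, r over the remaining 4 was -0.87 for Epcam, -0.80 for Sox9 and -0.22 for Cldn7. For Sox9 these 4 stood at 131 and 134 in URI(+/D)Hep 1 and 2, against 631 and 121 in URI(+/+)Hep 2 and 3. That r of Sox9 therefore rests largely on URI(+/+)Hep 2, a control with almost no Xist. Krt23 had an r of 0.05 and Krt19, at single-digit reads, one of -0.59. Each genotype holds too few of the 6 livers for a value of its own, with 4 URI(+/D)Hep and 2 URI(+/+)Hep.

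**Figure D5:**
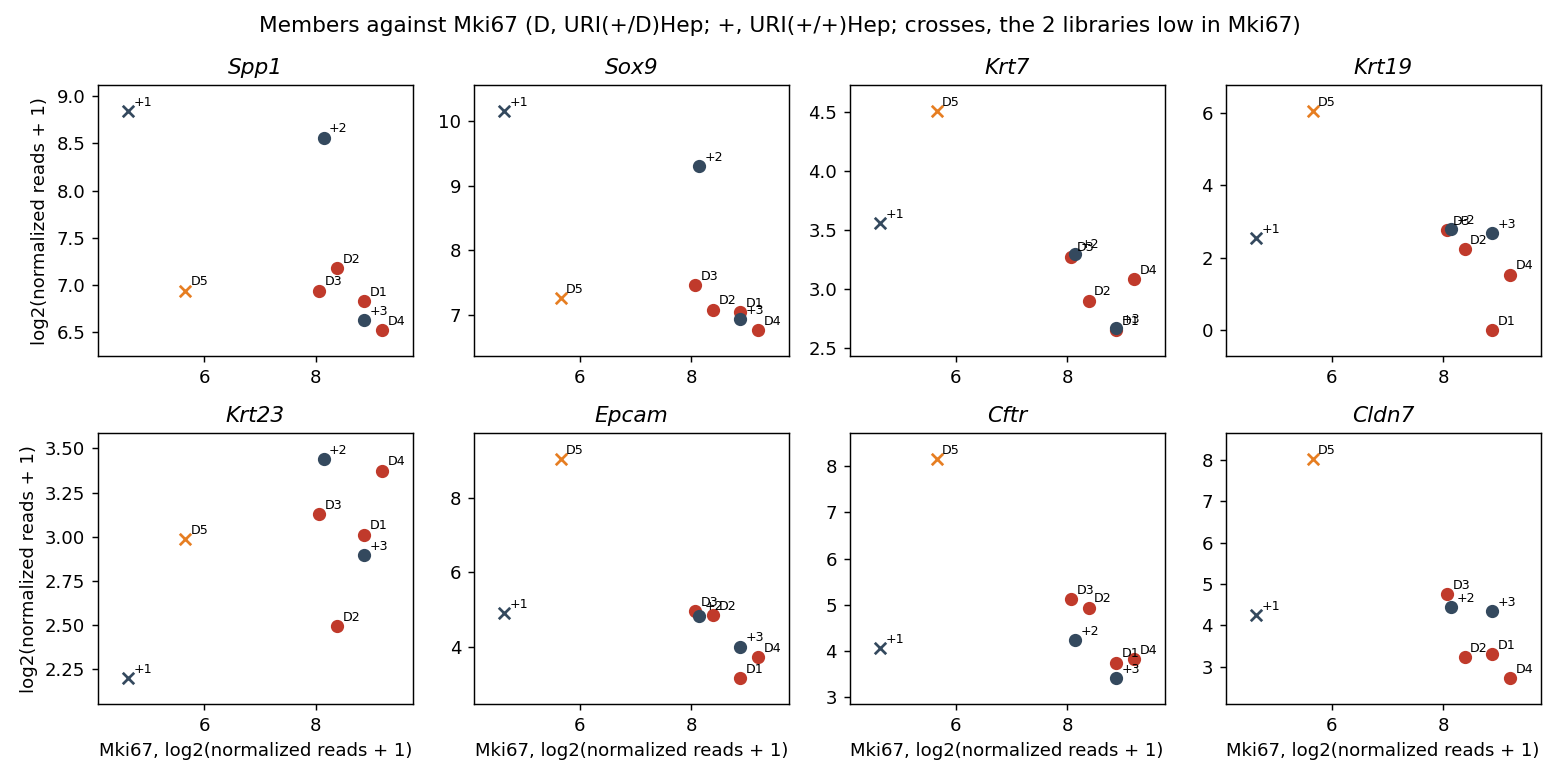
Each marker on the vertical axis against Mki67 on the horizontal axis, both as log2(normalized reads + 1); circles are the 6 livers with Mki67 of 268 to 586 and crosses are URI(+/D)Hep 5 and URI(+/+)Hep 1. Among the circles Epcam has an r of -0.86, and the crosses lie far apart for Epcam and Sox9.

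The genes whose pattern was most like the mean of the 8 markers were Synpo, Osbpl10, Tes, Acta2, Cdh17 and Eps8, out of 11910 genes with a mean of at least 20. Their Pearson r over the 8 libraries lay between 0.97 and 0.99, and their Spearman rho between 0.86 and 1. All 6 were highest in URI(+/D)Hep 5, and r over the 7 libraries without it lay between 0.89 and 0.99. The mean of the markers, each with its own log2 mean taken off, was itself highest there. It stood at 1.89 in URI(+/D)Hep 5, with URI(+/+)Hep 2 next at 0.39, so the choice favoured genes high in URI(+/D)Hep 5. This mean also blends unlike patterns, since Sox9 and Epcam had a Pearson r of 0.06 over the 8 libraries. Cdh17, an intestinal cadherin that is in the intestinal list, stood at 532 in URI(+/D)Hep 5, against 0.884 to 7.41 in URI(+/D)Hep 1 to 4 and 37.2, 22.6 and 1.07 in URI(+/+)Hep 1 to 3. Synpo, an actin-associated protein, stood at 729 in URI(+/D)Hep 5, against 263 to 363 in URI(+/D)Hep 1 to 4 and 429, 388 and 314 in URI(+/+)Hep 1 to 3.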

How the data were processed

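The authors deposited 1 table of normalized counts, a signal in which each library's reads were scaled by 1 factor, for 19055 genes in 8 mouse liver libraries. Per the labels' protocols, libraries were made from total RNA with a 3′ mRNA kit and a 6-base molecular identifier. Per the submitters' processing notes, bcl2fastq, featureCounts, DESeq2 and build GRCm39 were used; aligner, annotation and identifier handling: not given in the sources used here. No gene had fewer than 10 reads in total. In every library 100% of values were whole multiples of 1 read (tolerance 1e-06), which gave the depths. In URI(+/D)Hep 5 the value of 1 read is close to 1, so this recovery could be checked against the file only in the other 7 libraries.

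Values were compared as log2(value + 1), so a fold change understates that of low genes, with limma 3.58.1 in R 4.3.3, for genes at 10 or more in at least 3 libraries, with Benjamini-Hochberg adjustment over all of them. Alternatives were count tests on those whole reads with DESeq2 1.42.0 and with edgeR 4.0.16, and other pseudocounts, filters, normalizations, a replicate block, a Y-linked covariate and left-out libraries. For single genes a two-sided exact permutation test was used. The code was tested on simulated data. No source states that each library is a separate animal, so p-values measure the spread between these libraries, and the detection limit of 3 reads covers counting error only. The members and lists were chosen with earlier results of these data known. The lists of intestine, gallbladder, stomach, lung airway and kidney tubule were written after values were seen. Genes named beside the markers are those with the 2 smallest p-values and the 2 highest means in each list. The 6 most like the mean of the markers were added, and others were named after their values were seen. A gene that the rule names in the transcription factor list, and a motif searched, are not reported here.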

Additional observations from a re-analysis of the deposited data

Results flagged for a closer look

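URI(+/D)Hep 5 stood apart from the other 4 URI(+/D)Hep livers for 5 of the 8 markers. The gap to its nearest neighbour, as a share of the range of the group, was 0.957 for Epcam, 0.921 for Cftr, 0.919 for Cldn7, 0.911 for Krt19 and 0.794 for Krt7, where Dixon's 95% critical value for 5 samples is 0.71. The summed levels of the duct transport list (0.957), the pancreas list (0.781) and the intestinal list (0.884) passed the same value in the same liver. These ratios were taken on normalized reads, not on the log2(value + 1) scale of the other comparisons. High values stand less far apart on that scale, and the ratios were not computed there, so passing holds for normalized reads only. Chance passes the critical value in about 1 in 20 groups if values are normally spread. These genes share their libraries, and the intestinal list was written after this liver's values had been seen. The control group has 3 livers and cannot be examined this way.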

How the results depend on the processing

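The number of markers called higher stayed at 0 under 23 of 23 alternatives. The number called lower was 0 in 20 and 2, Spp1 and Sox9, in the other 3, DESeq2 with 8 and with 7 libraries and limma without URI(+/+)Hep 3. Leaving out 1 library gave 0 to 2 markers lower, 0 to 11 genes higher and 0 to 23 genes lower, with the 11 and 23 without URI(+/+)Hep 3. Genes called higher were 1 with a mean of at least 50 and 1 without both URI(+/+)Hep 1 and URI(+/D)Hep 5. The fits without URI(+/+)Hep 1 and 2 and the count tests on 7 libraries were chosen after seeing the data. Genes called lower were 1 with quantile normalization and 0 without the variance trend, with the Y-linked covariate, without URI(+/+)Hep 1 and URI(+/D)Hep 5, without URI(+/+)Hep 1 and 2, and with edgeR on 7 libraries. DESeq2 called 234 higher and 339 lower with 8 libraries, and 123 higher and 255 lower with 7. The median log2 fold change of the 5 markers past the filter was 0.06, against 1.65 with edgeR and 1.68 with DESeq2, and -0.84 to 0.48 when 1 library was left out. On 7 libraries, without URI(+/D)Hep 5, the median was -0.67 with edgeR and -0.66 with DESeq2.

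The log2 fold change turned sign under at least 1 alternative for 7 of the 8 markers, Cftr being the exception. Among the keratins, which have no test, it was 0.11 for Krt7, against -0.20 without URI(+/D)Hep 5, -0.14 without URI(+/+)Hep 3 and -0.0050 without URI(+/+)Hep 1 and URI(+/D)Hep 5. It was -0.15 for Krt19, against 0.48 without URI(+/D)Hep 1 and 0.10 without URI(+/D)Hep 4. It was 0.15 for Krt23, against -0.17 without URI(+/+)Hep 1, with or without URI(+/D)Hep 5. When 1 library was left out, log2 fold changes lay between -0.41 and 1.06 for Epcam and between -0.84 and 0.48 for Cldn7. Without URI(+/D)Hep 5 the log2 fold change was -0.41 for Epcam and -0.84 for Cldn7, without it and URI(+/+)Hep 1 it was -0.25 and -0.89, and with edgeR on 7 libraries, which lack that liver too, -0.29 and -0.67. Cldn7 also stood at -0.03 without URI(+/D)Hep 3. Without URI(+/+)Hep 1 and 2 it was 0.26 for Spp1 and 0.19 for Sox9. DESeq2 gave no adjusted p for Epcam, Cftr and Cldn7. Cftr stayed positive in 23 of 23 alternatives, and the Mki67 correlations kept their sign with pseudocounts of 0.5 and 8.

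Replicate numbers 1 to 3 occur in both genotypes. The correlations of deviations from the group means between same-numbered livers were -0.40, -0.04 and -0.27, and no control correlated best with its own number. Deviations from a mean of 3 controls are not independent of each other, so this check cannot exclude that the numbers pair the livers. With a replicate block, 0 genes were called lower, and the log2 fold changes were -0.26 for Epcam and -0.58 for Cldn7; URI(+/D)Hep 4 and 5 have no partner and drop out of the difference. Depth limits the keratins, which held 0 to 10 reads in every library other than URI(+/D)Hep 5.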

Other observations

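Genes of the epithelial and transport lists that are used as duct or progenitor markers elsewhere showed another order over the livers, noticed after their values were seen. Prom1, a membrane protein of epithelial progenitors, stood at 432, 272, 34.8, 167 and 91.98 normalized reads in URI(+/D)Hep 1 to 5, against 25.2, 35.4 and 211 in URI(+/+)Hep 1 to 3 (limma adjusted p = 0.467). Its low livers in the control group, URI(+/+)Hep 1 and 2, were the high ones for Sox9 and Spp1. Cys1, a protein of primary cilia, stood at 61.0, 39.8, 34.8, 63.7 and 22.7 in URI(+/D)Hep 1 to 5, against 1.20, 33.5 and 35.4 in URI(+/+)Hep 1 to 3 (limma adjusted p = 0.365). It was lowest in URI(+/+)Hep 1 and URI(+/D)Hep 5, the same pair of livers that was lowest for Mki67. Slc10a2, the apical bile acid carrier, stood at 340.3, 243, 131, 333 and 105 in URI(+/D)Hep 1 to 5, against 134, 234 and 311 in URI(+/+)Hep 1 to 3 (limma adjusted p = 0.967), and URI(+/D)Hep 5 was the lowest of the 8.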
